A study of Mus musculus with 6 samples.

Results

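The HCN genes encode the hyperpolarization-activated, cyclic nucleotide-gated cation channels, often called pacemaker channels. The members were the genes Hcn2, Hcn3 and Hcn4, looked up by symbol in the platform annotation of an Affymetrix mouse expression array. Of these 3 genes, 2 were matched to a probe set, Hcn2 (chromosome 10) and Hcn3 (chromosome 3), with 1 each; Hcn4 (chromosome 9) was matched to 0 and was not analysed here. They stand among 18193 genes with a probe set, of which 9097 were tested, both measured members included.

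The 6 arrays each held RNA from 1 pool of mouse dorsal root ganglion neurons, the sensory neurons whose cell bodies lie beside the spinal cord. L3-B pools were of 50 control neurons, and L3-S and L6-R pools were of 20 neurons carrying DiI, a lipophilic dye that axons carry back to the cell body. Each of these 3 title codes had a pool of big neurons and a pool of medium to small neurons, with 1 array for each. The sources used here give no genotype, strain, age or number of animals, nor the site of the DiI or the meaning of the codes, so a code cannot be told apart from DiI and from pool size where L3-B is compared. The number of arrays limits the precision. With 1 array for each code and size class, p-values rest on how far matched pairs of arrays disagreed and on a spread shared over all genes tested. Some of that spread may be technical. The spread among like pools or among animals was not measured.

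HCN channels differ from most voltage-gated channels in that they open when the membrane becomes more negative. They then carry an inward mixed sodium and potassium current that pushes the cell back toward firing. Cyclic AMP binds to a fold in the intracellular tail of the channel and makes opening easier, strongly in HCN2 and HCN4 but not clearly in HCN3. In heart, HCN4 is the main channel of the pacemaker cells. In sensory neurons this current sets the resting potential and the readiness to fire repeatedly, and mouse HCN2 in pain-sensing neurons is needed for much of inflammatory and nerve-injury pain.

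Hcn3 differed between the title codes, and Hcn2 followed another order. Hcn3 was lowest in the L3-B control neurons, higher in L3-S and highest in L6-R. Hcn2 was highest in L3-S, with L3-B and L6-R lower and overlapping each other. Only the rise of Hcn3 in L6-R over L3-B passed the adjusted threshold of 0.05. Signals are the deposited linear intensities, and differences are those of log2(signal + 32), where 32 lies near the background of such arrays.

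Hcn3 signals were 29.6 and 14.8 in the L3-B arrays (big, then medium to small). The L3-S arrays read 83.0 and 82.1, and the L6-R arrays 150 and 157. All 3 codes were thus separate, in the same order in both size classes, and both L3-B values lay under 32, where levels cannot be resolved. Of the genes tested, 5.62% were ordered in the same way without overlap. Among all genes Hcn3 stood at percentiles 40.2 and 31.0 on the L3-B arrays, 55.8 and 55.3 on the L3-S arrays, 65.5 and 65.1 on the L6-R arrays. The big and medium to small arrays of a code lay closer together than the codes did, but they are not replicates. Means of log2(signal + 32) were 5.75 ± 0.20 in L3-B, 6.84 ± 0.01 in L3-S and 7.54 ± 0.03 in L6-R. The ± value is the distance of each array from the mean (n = 2 arrays), so it holds the size class difference. The added 32 narrows it for L3-B, whose signals differed by a ratio of 2.00.

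Hcn2 signals were 61.3 and 105 in the L3-B arrays (big, then medium to small). The L3-S arrays read 140 and 119, and the L6-R arrays 55.1 and 80.8. All 6 values lay above 32. The L6-R values lay below both L3-S values, as in 27.3% of the genes tested, while L3-B overlapped L6-R and lay below L3-S in both size classes. The means of log2(signal + 32) were 6.82 ± 0.28 in L3-B (the ± value is the distance of each array from the mean, n = 2 arrays), 7.33 ± 0.09 in L3-S and 6.63 ± 0.19 in L6-R. Over the 6 arrays Hcn2 and Hcn3 had a Pearson r of -0.18, given as a description. Levels of the 2 genes are not compared with each other, since each probe set has its own response.

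**Figure D1:**
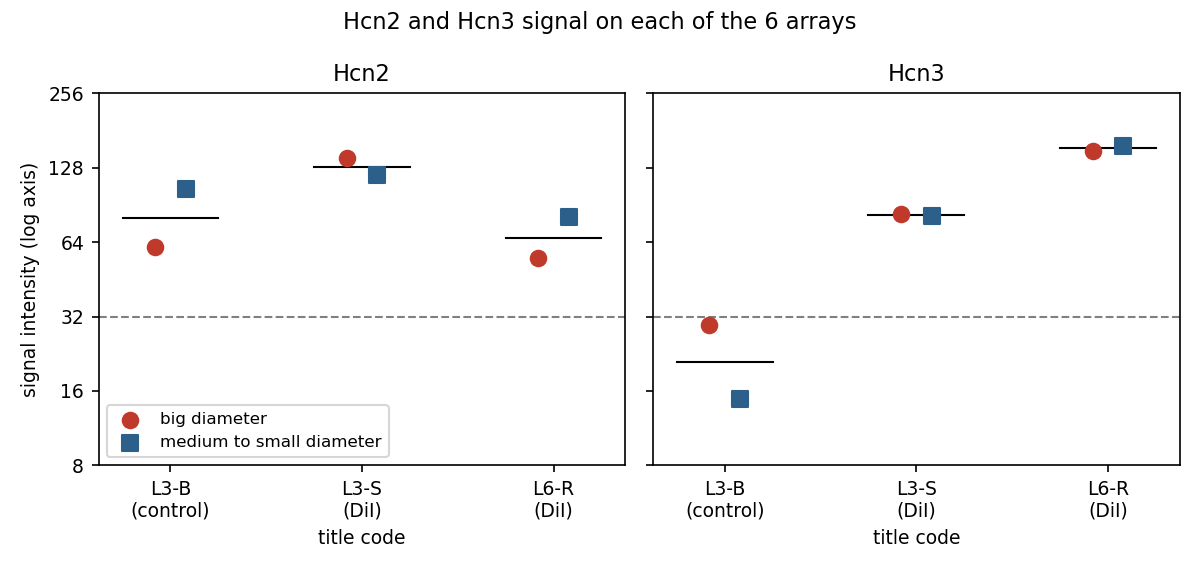
Signal intensity (vertical, log axis) of Hcn2 and Hcn3 on each of the 6 arrays by title code; circles are big and squares medium to small neurons, black bars are geometric means of the 2 arrays of a code and the dashed line marks a signal of 32. Hcn3 lies at 14.8 and 29.6 in L3-B and at 150 and 157 in L6-R, while Hcn2 is highest in L3-S, at 119 and 140.

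The first comparison was of L6-R neurons with the L3-B control neurons. Hcn3 rose, with a difference of 1.79 ± 0.23 log2 (SE, n = 2 arrays per code, limma adjusted p = 0.00301), which is 3.46-fold higher on the log2(signal + 32) scale with a 95% interval of 1.26 to 2.32 log2. The rise was 1.57 between the arrays of big neurons and 2.01 between those of medium to small neurons. As ratios of signal these are 5.08 and 10.6, both against an L3-B signal under 32. In this comparison 683 of 9097 genes passed (7.51%), 424 of them higher, and Hcn3 ranked 125 by p. Hcn2 did not pass, at -0.19 ± 0.25 (adjusted p = 0.722, 95% interval -0.77 to 0.39), with -0.10 for big neurons and -0.28 for medium to small neurons. Without the L3-B medium to small array the Hcn2 difference was 0.04.

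Hcn3 stayed higher whichever array was left out (1.58 to 2.00 log2). The mean level of Hcn3, 6.71, was above the filter minimum of 6.41 only through the DiI arrays. With no filter on dim genes it still passed (adjusted p = 0.0135).

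L3-S neurons were compared with the same L3-B arrays, which both comparisons share. Hcn3 stood at 1.09 ± 0.23 log2 (SE, n = 2 arrays per code, limma adjusted p = 0.0794, 95% interval 0.56 to 1.62), with 0.90 for big neurons and 1.28 for medium to small neurons, and did not pass. In this comparison 93 of 9097 genes passed (1.02%). Without the L3-B big array Hcn3 stood at 1.30 and passed (adjusted p = 0.0443). Its size depended on the pseudocount, at 0.49 with the larger (adjusted p = 0.312) and 1.92 with the smaller (adjusted p = 0.0749). Hcn2 stood at 0.51 ± 0.25 (adjusted p = 0.573, 95% interval -0.07 to 1.09), which was 0.88 for big neurons and 0.14 for medium to small neurons. Leaving out 1 array moved it from 0.19 (without L3-S big) or 0.28 (without L3-B big) to 0.84 (without L3-S medium to small). Both members were thus higher in both pairs, by amounts that did not pass.

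The codes L6-R and L3-S share DiI and the number of neurons in a pool, and their comparison came next. The members lay on opposite sides of 0 here, and neither passed. Hcn2 stood at -0.70 ± 0.25 log2 (SE, n = 2 arrays per code, limma adjusted p = 0.214, 95% interval -1.28 to -0.12), with -0.98 for big neurons and -0.43 for medium to small neurons. Leaving out 1 array moved it from -0.38 (without L3-S big, adjusted p = 0.773) to -1.03 (without L3-S medium to small, adjusted p = 0.133). Hcn3 stood at 0.70 ± 0.23 (adjusted p = 0.176, 95% interval 0.17 to 1.23), with 0.67 and 0.73 in these size classes. Among all genes 3.18% passed, and 10.7% had a smaller p than Hcn2 and 8.98% a smaller p than Hcn3. The difference between the 2 genes was not itself tested.

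The size classes were compared over the 3 codes. Hcn2 stood at -0.25 ± 0.21 log2 (SE, n = 3 arrays per size class, limma adjusted p = 0.998, 95% interval -0.72 to 0.22). Its pairs were -0.56 in L3-B, 0.18 in L3-S and -0.37 in L6-R, so big neurons had less Hcn2 signal in 2 of 3 codes. Hcn3 stood at 0.12 ± 0.19 (adjusted p = 0.998, 95% interval -0.31 to 0.55), with pairs of 0.40, 0.01 and -0.05. Each of the other codes had nearly the same Hcn3 signal in both size classes, and the 0.40 of L3-B is a difference between signals under 32. In limma 0 of 9097 genes passed between the size classes (percent called 0), with 320 at an unadjusted p under 0.05, so the size comparison resolved no gene.

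**Figure D2:**
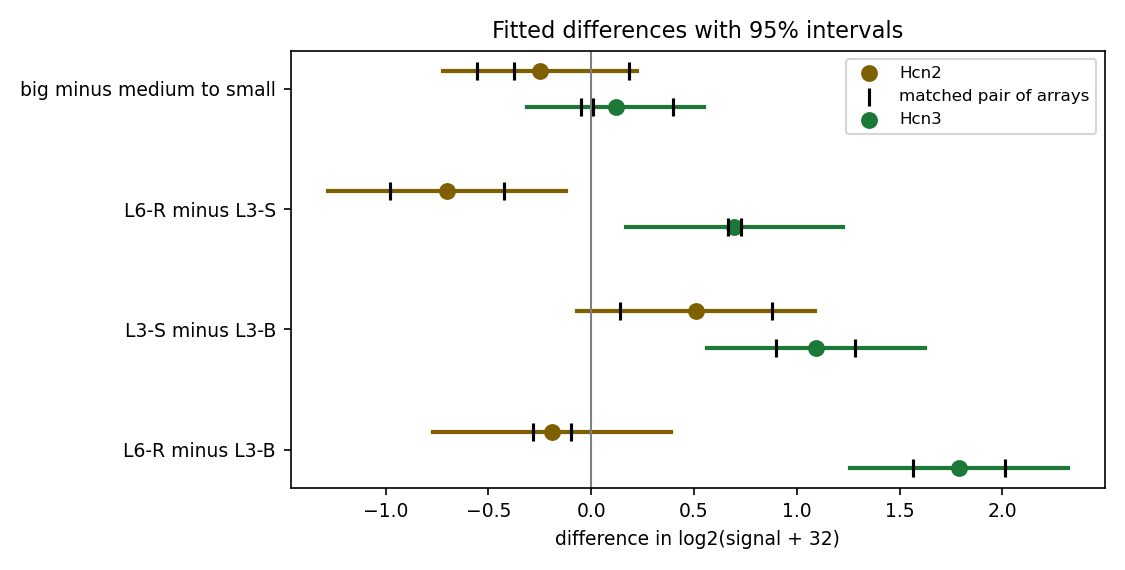
Fitted differences in log2(signal + 32) (horizontal) of Hcn2 and Hcn3 in the 4 comparisons; dots are limma estimates, lines 95% intervals and black ticks the matched pairs of arrays. The Hcn3 interval for L6-R minus L3-B runs from 1.26 to 2.32, and both size class intervals span 0.

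Array quality and the makeup of the pools also varied. The ratio of 3' to 5' signal of the Actb control, which grows as RNA is less complete, stood at 13.9 and 3.73 for L3-B (big, then medium to small), at 5.42 and 12.0 for L3-S, at 8.31 and 8.42 for L6-R. For both L3-B and L3-S, Hcn2 was lower on the array of higher ratio, while for L6-R, whose ratios were close, it was higher. Hcn3 in L3-B was higher on the array of higher ratio. With this ratio as a covariate Hcn3 was still higher in L6-R than in L3-B, by 1.76 log2 (adjusted p = 1.31e-05). In L6-R against L3-S, Hcn2 then stood at -0.69 (limma adjusted p = 0.0459) and Hcn3 at 0.69 (adjusted p = 0.0444), both past the threshold. These differences were close to those without the covariate, -0.70 and 0.70. Genes past the threshold in this comparison went from 289 to 994. The covariate leaves fewer residual degrees of freedom than the main fit has.

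The dorsal root ganglion label was checked with 8 markers of sensory neurons in general, all of which read above 32 on all 6 arrays, and 0 of 8 passed in each comparison. The marker counts that follow are for L6-R against L3-B, where 4.66% of all genes were higher and 2.85% lower. Of 10 tested markers of peptidergic nociceptors, the neuropeptide-releasing pain neurons, 7 were higher, against 2 of 10 in L3-S against L3-B, and their summed signal spanned 5626 to 7615 for L3-B, 7978 to 8465 for L3-S, 12945 to 15772 for L6-R. Among 14 tested markers of large myelinated-fibre neurons 6 were lower and 1 higher in L6-R than in L3-B, and their summed signal was 61050 to 69573 in L3-B and 44025 to 55258 in L6-R. Satellite glia and Schwann cell markers were higher for 5 of 11 (summed signal 12133 to 13090 in L3-B, 15553 to 21939 in L6-R), and 3 of 4 tested markers of connective tissue and vessels were higher (347 to 457, and 1105 to 1948). Small-diameter neurons other than the peptidergic ones had 6 markers tested, of which 2 were higher and 0 lower (4039 to 5225, and 5377 to 6550). Of the markers counted as higher, Trpv1, Trpa1, Adcyap1, Gal and Runx1 read under 32 on both L3-B arrays, and Gfra3 and Osmr were also dim there. Such genes met the filter minimum of 6.41 only through the DiI arrays, and markers dim on every array were not tested. The marker counts therefore lean toward higher. The shares of all genes passed through the same filter. The 5 heart muscle markers summed to 33.9 to 91.5 on an array, and 9 blood and immune markers to 132 to 325. Between the size classes no marker passed. List medians of big minus medium to small were 0.16 log2 for large myelinated-fibre neurons and 0.27 for peptidergic nociceptors, against -0.02 for all genes. These markers thus did not set the big pools apart as large-fibre neurons. In a pool, more cells of a type and more RNA per cell cannot be told apart. The part of these markers in the Hcn3 result was not tested.

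The genes whose profile over the 6 arrays was most like that of a member are given as a description. For Hcn3, 2445 tested genes with a range of at least 1 log2 were searched. The 4 highest Pearson r values belonged to Bmpr1b, a receptor for bone morphogenetic proteins (0.998), Ptbp3, an RNA-binding splicing regulator (0.993), Plcxd3, a phospholipase-like protein (0.992), and Ehbp1l1, a protein of membrane transport (0.992), and 73 genes had an r over 0.95. Plcxd3 read 191 and 159 on the L3-B arrays (big, then medium to small), 451 and 456 on the L3-S arrays, 939 and 1047 on the L6-R arrays. For Hcn2 the 4 genes were Prps2, an enzyme that makes the sugar phosphate for nucleotide synthesis (0.984), the small GTPase-like Rasl11b (0.980), Kcnab1, an accessory subunit of Kv1 potassium channels (0.974), and the Polycomb protein Cbx8 (0.964). Only 5 genes had an r over 0.95 with Hcn2. Kcnab1 read 297 and 532 on the L3-B arrays, 992 and 764 on the L3-S arrays, 300 and 511 on the L6-R arrays, highest in L3-S as Hcn2 was. High r values are common among so many genes over 6 arrays that share their scaling.

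**Figure D3:**
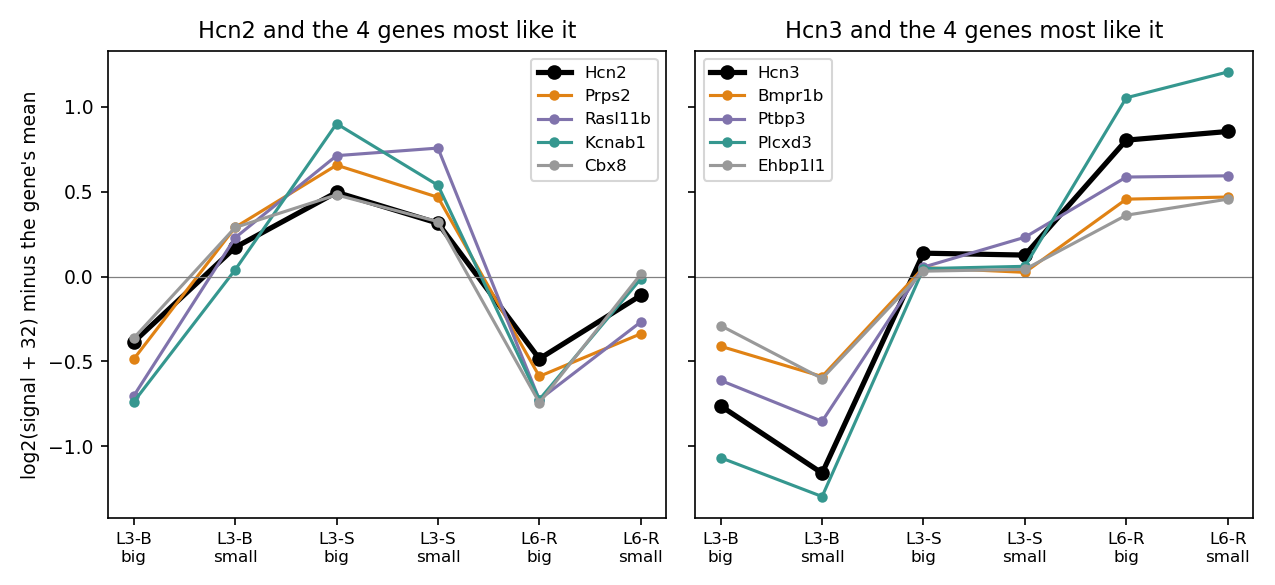
Profiles of Hcn2 and Hcn3 (black) and of the 4 genes most like each (colours) over the 6 arrays, as log2(signal + 32) minus the gene's mean; small stands for medium to small diameter. The Hcn3 group climbs from L3-B to L6-R, with r from 0.992 to 0.998, and the Hcn2 group peaks in L3-S, with r from 0.964 to 0.984.

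Cyclic AMP tunes HCN2 and HCN4, and HCN3 not clearly. The genes that make, break down and sense it were described beside the members, together with proteins that bind or modify HCN channels. The 6 lists hold 86 genes, of which 76 had a probe set and 50 were tested. They were chosen with earlier results of these data known, so the shares that follow are a description and not a test. In L6-R against L3-B 6 of these 50 rose and 7 fell (26.0%, against 7.51% of all genes, 4.66% higher and 2.85% lower). In L3-S against L3-B 3 rose and 0 fell (6.00%, against 1.02% of all genes, 0.923% higher and 0.0989% lower). In L6-R against L3-S 3 rose and 3 fell (12.0%, against 3.18% of all genes, 1.26% higher and 1.91% lower). Between the size classes 0 of 50 passed. Adcy5, Adcy8 and Pkig, all dim in L3-B, met the filter minimum of 6.41 only through the DiI arrays. The shares of all genes passed through the same filter. Of the 13 genes called in L6-R against L3-B, 4 passed whichever array was left out (Adcy5, Pde1c, Prkar2b and Pkig). The same held for 2 of 3 in L3-S against L3-B (Adcy8 and Pde1c), and for 0 of 6 in L6-R against L3-S. Over all settings in which a gene was tested, the calls held for the same 4 genes in L6-R against L3-B and for 0 of 3 in L3-S against L3-B. Adcy5 was not tested with probe sets averaged per gene, and neither Adcy5 nor Pkig in the upper 25% of genes. There the Adcy8 call was lost with no filter, with every probe set tested and with the larger pseudocount, and the Pde1c call with every probe set tested and with probe sets averaged per gene.

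Adenylyl cyclases, the enzymes that make cyclic AMP, changed in both directions. In L6-R against L3-B 1 of 7 tested rose and 2 fell (list median 0.56, against 0.02 for all genes). Adcy5, a cyclase inhibited by calcium, read 35.7 and 28.0 on the L3-B arrays, 87.3 and 130 on the L3-S arrays, 174 and 199 on the L6-R arrays, the order that Hcn3 showed. The rise was 1.78 ± 0.24 log2 (SE, n = 2 arrays per code, limma adjusted p = 0.00363), and its 3 dimmer probe sets ran from -0.51 to 0.93. Adcy1, a cyclase stimulated by calcium and calmodulin, read 645 and 693 on the L3-B arrays, 610 and 579 on the L3-S arrays, 150 and 232 on the L6-R arrays. It fell in L6-R, with differences of -1.67 against L3-B (adjusted p = 0.00458) and -1.51 against L3-S (adjusted p = 0.0150). The Adcy1 calls were lost without the L6-R big array (adjusted p = 0.0503 and 0.168).

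Adcy8, also stimulated by calcium, read 22.2 and 12.5 on the L3-B arrays, 130 and 224 on the L3-S arrays, 39.1 and 52.7 on the L6-R arrays. It was highest in L3-S, like Hcn2, and both L3-B signals lay under 32, so the size of its difference from L3-B is not resolved (1.05 with the larger pseudocount, adjusted p = 0.0548). On the log2(signal + 32) scale it rose by 2.05 ± 0.27 log2 in L3-S against L3-B (SE, n = 2 arrays per code, limma adjusted p = 0.0144) and fell by 1.39 in L6-R against L3-S (adjusted p = 0.0332), a call lost when the medium to small array of L3-S (adjusted p = 0.133), the big array of L6-R (0.158) or its medium to small array (0.126) was left out. Adcy7 fell by 1.36 in L6-R against L3-B (adjusted p = 0.0231), which was lost without the L3-B big array (adjusted p = 0.0652) or the L6-R medium to small array (0.197). The Adcy7 call was also lost with no filter (limma adjusted p = 0.0701) and with probe sets averaged per gene (0.127). The dimmer probe sets of Adcy7 stood at 0.28 and -0.65. The other cyclases tested, Adcy2, Adcy3 and Adcy9, did not pass.

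Of 9 phosphodiesterases tested, which break cyclic nucleotides down, 2 rose and 0 fell in L6-R against L3-B. Pde1c, a calcium- and calmodulin-activated enzyme, read 198 and 142 on the L3-B arrays, 1001 and 1069 on the L3-S arrays, 1205 and 1288 on the L6-R arrays. Both DiI codes were thus far above the controls and close to each other. It rose by 2.41 ± 0.24 log2 in L3-S (SE, n = 2 arrays per code, limma adjusted p = 0.00399) and by 2.67 in L6-R (adjusted p = 0.000591) against L3-B, with 5 dimmer probe sets from -0.42 to 1.20 in L6-R. Pde8b, which is specific for cyclic AMP, rose by 1.03 in L6-R against L3-B (adjusted p = 0.0395), lost without the L3-B big (adjusted p = 0.112), L6-R big (0.517) or L6-R medium to small (0.0799) array. Pde4b, also specific for cyclic AMP, read 195 and 200 on the L3-S arrays, 413 and 534 on the L6-R arrays, and rose by 1.13 between them (adjusted p = 0.0383, dimmer probe sets from -0.12 to 1.03). That call was lost without either L3-S array (adjusted p = 0.0782 and 0.121, big first) or either L6-R array (0.140 and 0.403).

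Protein kinase A, the main kinase that cyclic AMP activates, had 9 subunits and inhibitors tested. In L6-R against L3-B 2 of them rose and 1 fell. Prkar2b, a regulatory subunit abundant in neurons, read 4579 and 3648 on the L3-B arrays, 1570 and 1832 on the L3-S arrays, 771 and 1004 on the L6-R arrays, the reverse of the order of Hcn3. It fell by 2.18 ± 0.25 log2 in L6-R against L3-B (SE, n = 2 arrays per code, limma adjusted p = 0.00160), and its 3 probe sets lay from -2.36 to -1.80. In L3-S against L3-B it stood at -1.25 (adjusted p = 0.0661). The 2 genes that rose encode inhibitors of the kinase. Pkig, which read 64.7 and 32.4 on the L3-B arrays, 68.1 and 77.1 on the L3-S arrays, 292 and 210 on the L6-R arrays, rose by 1.83 against L3-B (adjusted p = 0.00382) and by 1.42 against L3-S (adjusted p = 0.0217), the latter lost without the L3-S big (adjusted p = 0.107), L6-R big (0.156) or L6-R medium to small (0.0780) array. The other Pkig probe set, of nearly the same brightness, rose less, by 0.74 and 0.39. With probe sets averaged per gene the call against L3-B held (limma adjusted p = 0.0205) and the call against L3-S was lost (0.0944). Pkib rose by 1.43 against L3-B (adjusted p = 0.0186, dimmer probe set 0.95) and by 1.39 against L3-S (adjusted p = 0.0383, dimmer probe set 0.52). The first call was lost without the L3-B big (adjusted p = 0.0532) or L6-R medium to small array (0.162), and the second without L3-S medium to small (0.178), L6-R big (0.0523) or L6-R medium to small array (0.293). The catalytic subunits Prkaca and Prkacb did not pass in any of the 4 comparisons.

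G proteins and receptors that set cyclic AMP mostly did not pass. Of 10 tested, 0 rose and 2 fell in L6-R against L3-B, both of them receptors that raise cyclic AMP. The prostacyclin receptor Ptgir read 745 and 851 on the L3-B arrays, 404 and 416 on the L3-S arrays, 392 and 377 on the L6-R arrays, and fell by 0.99 log2 in L6-R (n = 2 arrays per code, limma adjusted p = 0.0314). The serotonin receptor Htr7 fell by 1.03 (adjusted p = 0.0342). Both calls were lost without the L3-B medium to small array (adjusted p = 0.0804 for Ptgir and 0.110 for Htr7), the big array of L6-R (0.197 and 0.160) or its medium to small array (0.292 and 0.296). The stimulatory G protein gene Gnas and the prostaglandin E receptor gene Ptger4 did not pass, with signals of 5851 to 8772 and 949 to 1220 over all arrays.

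Of 13 tested proteins that bind or modify HCN channels, 1 rose and 1 fell in L6-R against L3-B. Prkg2, a cyclic GMP-dependent kinase reported to act on HCN2, read 67.3 and 102 on the L3-B arrays, 301 and 271 on the L3-S arrays, 259 and 186 on the L6-R arrays. It rose by 1.46 ± 0.26 log2 in L3-S (SE, n = 2 arrays per code, limma adjusted p = 0.0466) and by 1.13 in L6-R (adjusted p = 0.0378), each against L3-B. A probe set of nearly the same brightness rose less, by 0.91 and 0.71, and a dimmer probe set by 0.75 and 0.30. With probe sets averaged per gene both calls were lost (limma adjusted p = 0.094 and 0.077). The L3-S call was lost without the L3-B big array (adjusted p = 0.0867) or either L3-S array (0.0562 and 0.0610, big first), and the L6-R call without the L3-B big array (0.127) or either L6-R array (0.425 and 0.0603). Grasp, a scaffold protein also called tamalin, fell by 1.36 in L6-R against L3-B (adjusted p = 0.00770), which was lost when the medium to small array of L6-R was left out (0.0792). The Grasp call was also lost with probe sets averaged per gene (limma adjusted p = 0.222) and with every probe set tested (0.0529). The dimmer probe sets of Grasp stood at 0.06 and -0.20. Pex5l, the brain partner of HCN channels that steers their traffic and lowers their response to cyclic AMP, read 98.6 and 248 on the L3-B arrays, 165 and 134 on the L3-S arrays, 274 and 202 on the L6-R arrays, and did not pass in any comparison.

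Channels that share the cyclic nucleotide binding fold were mostly too dim to test, with 2 of 11 measured above the filter. Kcnh2, a potassium channel of the ether-a-go-go family, read 892 and 836 on the L3-B arrays, 666 and 934 on the L3-S arrays, 328 and 370 on the L6-R arrays. It fell in L6-R, with differences of -1.24 log2 against L3-B (n = 2 arrays per code, limma adjusted p = 0.0165) and -1.11 against L3-S (adjusted p = 0.0459). The first call was lost without the L3-B big array (adjusted p = 0.05002) or either L6-R array (0.112 and 0.120), and the second without L3-S medium to small (0.206) or either L6-R array (0.278 and 0.295). Kcnh1 stood at -0.37 and -0.07 in these comparisons and did not pass.

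**Figure D4:**
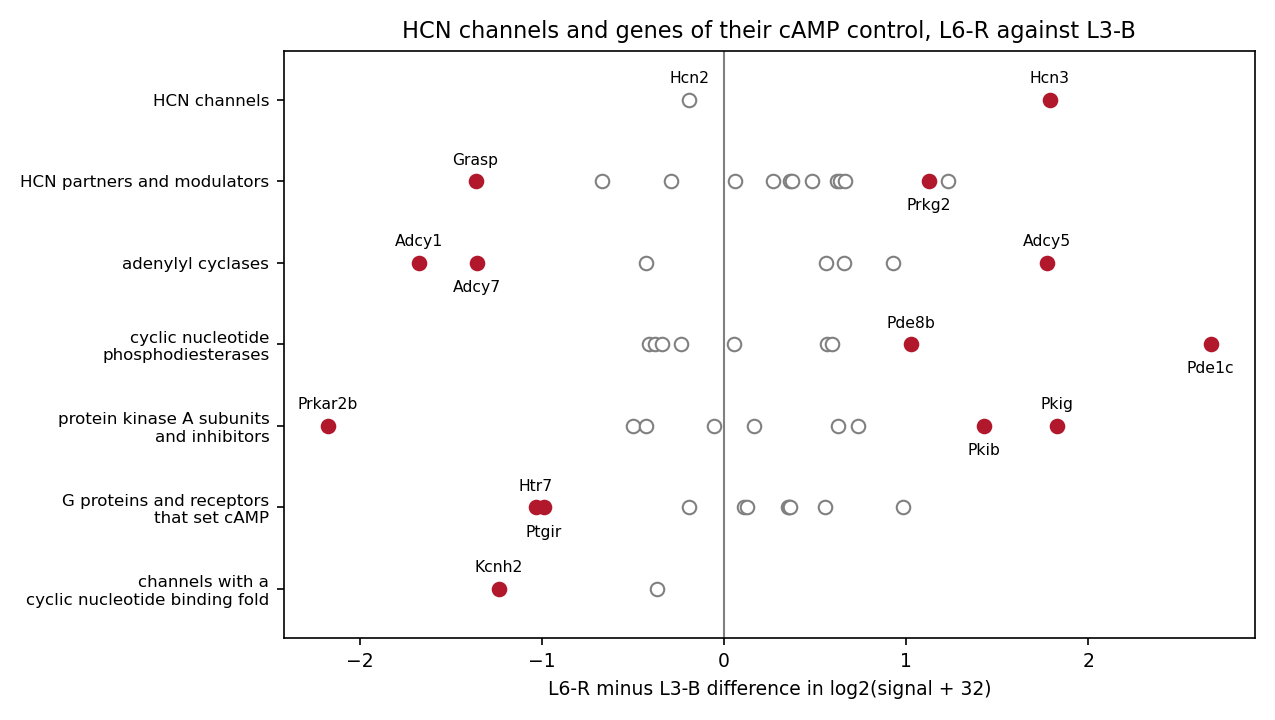
Difference in log2(signal + 32) between L6-R and L3-B (horizontal) for Hcn2, Hcn3 and the 50 tested genes of 6 lists; filled points passed a limma adjusted p of 0.05 and open points did not. Hcn3 lies at 1.79, and 13 of the 50 genes are filled, 6 to the right of 0 and 7 to the left.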

How the data were processed

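Values were the authors' deposited signal intensity per probe set, on a linear scale; the software that made them is not given in the sources used here. Every array had the same mean, 150, once 2% of its lowest and of its highest values were dropped, so the deposited scaling was kept. Between 55.3% and 59.6% of probe sets read under 32 on an array. No detection calls were used.

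A gene was read from its probe set of highest mean log2(signal + 32), and the upper 50% of 18193 genes were tested (9097, minimum mean 6.41). Of 45037 probe sets 34945 had 1 symbol, 932 several and 9160 none. Chromosomes came from a RefSeq gene table of GRCm38.p6. R 4.3.3 with limma 3.58.1 fitted title code and size class additively to all 6 arrays (2 residual and 6.46 prior degrees of freedom, two-sided, Benjamini-Hochberg adjusted). No combination of code and size had replicate arrays, so an interaction could not be tested.

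The members and lists were chosen with earlier results of these data known. Named genes were the members, the 4 genes most correlated with each and the list members past the threshold. A planned naming of up to 3 per list with the smallest p was not carried out in full. Plcxd3 and Kcnab1 signals, Pex5l, Gnas, Ptger4, Kcnh1, Adcy2, Adcy3, Adcy9, Prkaca and Prkacb were singled out after their values were seen. So were the markers named as dim in L3-B. The fit was tested on simulated data.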

Additional observations from a re-analysis of the deposited data

Results flagged for a closer look

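The size class difference of both measured members changed sign between codes, which was not tested, since each code had 1 pair of arrays. For Hcn2 the difference of big minus medium to small neurons in log2(signal + 32) was -0.56 in L3-B and 0.18 in L3-S. For Hcn3 it was 0.40 in L3-B, between signals under 32, and -0.051 in L6-R.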

How the results depend on the processing

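Hcn3 in L6-R against L3-B kept its direction and its call under each of 16 planned settings and with the Actb 3' to 5' ratio as a covariate, a setting chosen after seeing the data, with differences from 0.91 (the larger pseudocount) to 2.81 (pseudocount 1). The settings are not all separate checks. In each comparison of 2 codes, leaving out an array of the remaining code gave the same fit as only the 4 arrays compared. Leaving out each array gave Hcn3 in L3-S against L3-B 0.88 to 1.30, past the threshold at 1.30 without the L3-B big array, and the Actb covariate gave 1.07, also past it. The pseudocounts gave 0.49 (larger) and 1.92 (1), and every probe set tested gave an adjusted p of 0.413, none of them past it. With the Actb covariate Hcn2 (-0.69) and Hcn3 (0.69) passed in L6-R against L3-S, at differences close to the main -0.70 and 0.70. Values that lay near 0 changed sign: Hcn3 between size classes (-0.020 with the 4 DiI arrays only, and -0.020 to 0.20 with an array left out) and Hcn2 in L6-R against L3-B (-0.42 to 0.039 with an array left out). Hcn2 kept its direction but not its size with an array left out in L6-R against L3-S (-1.03 to -0.38), in L3-S against L3-B (0.19 to 0.84) and between size classes (-0.47 to -0.096).

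Counts of genes called moved more, and the cause was not tested beyond the number of genes or arrays entering a fit. For L6-R against L3-S the main 289 became 134 with a pseudocount of 1, 107 with no filter, 115 in the upper 25% of genes, 24 with every probe set tested, 633 with array weights, 653 with only the 4 arrays compared, 994 with the Actb covariate and 140 to 653 with an array left out. For L3-S against L3-B the main 93 became 46 with a pseudocount of 1, 14 with no filter, 21 in the upper 25%, 0 with every probe set tested (limma), 41 with probe sets averaged per gene, 48 with array weights, 171 with only the 4 arrays compared, 512 with the Actb covariate and 61 to 202 with an array left out. For L6-R against L3-B the main 683 became 299 in the upper 25%, 278 with every probe set tested, 1590 with the Actb covariate and 356 to 995 with an array left out. Between size classes the count was 0 to 1 with an array left out and 2 with the covariate. Neither member was in the upper 25% of genes, and no alternative could be run for Hcn4. Signals under 32 limit what can be read of Hcn3 in L3-B.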
